A study of Mus musculus with 18 samples.

Results

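*Lin28a*, *Lin28b*, *Hmga2*, *Igf2bp1*, *Igf2bp2* and *Igf2bp3* are called oncofetal genes because they are active in the embryo, mostly fall silent in adult tissue and can return in tumours; *Igf2bp2* is the member with the widest adult expression. The 6 genes were chosen by name, and all 6 had a row in both tables of expression values, out of 20115 genes in the table of stages and 20268 in the table of reprogrammed fibroblasts. In the table of stages each gene had 1 row, that is 1 annotated transcription start.

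RNA-seq had been carried out on 18 mouse samples of strain 129. Of these, 10 came from an ESC line with a GFP reporter in the *Brachyury* gene, cultured on MEFs as feeder cells and differentiated in vitro, with 2 replicates for each of 5 sorted stages: ESC, mesoderm (MES, Bry-GFP+ and Flk1-), hemangioblast (HB, Bry-GFP+ and Flk1+), hematopoietic progenitors (HP, CD41+) and macrophages (MAC, CD11b+, grown from CD41+ cells). The stage between HB and HP, the hemogenic endothelium, is not analysed here, so that a change from HB to HP spans it. The other 8 libraries were MEFs from day 14.5 embryos, prepared from wild-type or iTal1-2A-GFP mice, the latter carrying rtTA and a TRE-TAL1 cassette that doxycycline switches on. They were either untreated (uFIB) or given Scl and Lmo2 (SL), Scl, Fli1, Gata2 and Lmo2 (SFGL) or Fli1, Gata2 and Lmo2 (FGL), and were labelled day 12 or day 21, with 1 library per condition. Scl is another name of Tal1. Cells without CD45, CD41, CD31 and CD117 had been sorted from the MEFs before the factors were given. The labels do not say which of the MEF genotypes each library came from.

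Levels are FPKM, fragments per kilobase of transcript, scaled to the size of the library. The table of stages gives 1 value per stage in which the replicates are already combined, and the MEF table gives 1 value per library. No replicate error could therefore be computed for any value below, and no test was run. A gene is called higher or lower where FPKM + 1 differed at least 2-fold, a difference of at least 1 on the log2(FPKM + 1) scale, among genes with at least 1 FPKM in either of the compared columns. The share of all such genes called in the same direction is given beside the first count for each comparison. The tables were normalized separately, and levels are compared only within a table. The number of reads behind a value is not part of the tables. From the steps between low values, the depth of the other MEF libraries ranged from 0.587 to 1.56 times that of uFIB at day 12, an estimate that rests on 15.1% to 19.3% of the genes with low values.

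The products of these genes are tied together by the let-7 family of microRNAs. LIN28A and LIN28B are RNA-binding proteins that bind the loop of let-7 precursors and block their maturation. *Hmga2* encodes an architectural chromatin protein that binds AT-rich DNA, and its mRNA is a classic let-7 target. The IGF2BP proteins bind mRNAs, among them that of the growth factor IGF2, and protect them or control where and when they are translated. In the blood system LIN28B, let-7 and HMGA2 are known for separating fetal from adult programs of stem and progenitor cells. Mature let-7 RNAs were not measured in these libraries.

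The let-7 seed is shown because a single run of letters links the microRNA to all 6 members. RefSeq (GRCm38.p6) listed 11 mature mouse names of the family, and 10 of them carried the seed GAGGUAG at bases 2 to 8. The exception was let-7j. The seed is in capitals in the following mature sequences, written 5′ to 3′.
let-7a-5p: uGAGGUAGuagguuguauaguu
let-7g-5p: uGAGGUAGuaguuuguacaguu
miR-98-5p: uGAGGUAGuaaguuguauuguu
let-7j: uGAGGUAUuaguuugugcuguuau

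The letters GGAG in the loop region are the part of let-7 precursors that LIN28 is known to recognise. RefSeq listed 13 hairpins, of which 11 had both arms annotated, and 8 of these 11 held GGAG between the arms. The precursor of let-7g, at chr9:106178840-106178927 on the plus strand, held it, and that of let-7c-2, at chr15:85706603-85706697 on the plus strand, did not. GGAG is in capitals.
Mirlet7g: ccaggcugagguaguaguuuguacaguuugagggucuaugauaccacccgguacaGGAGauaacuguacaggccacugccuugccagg
Mirlet7c-2: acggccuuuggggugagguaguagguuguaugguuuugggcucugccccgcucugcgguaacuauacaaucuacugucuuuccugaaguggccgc

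The annotated 3′ UTRs of the members were searched, on the transcript strand, for CTACCTC, the reverse complement of the seed, and for CTACCTCA, the same with the A that lies opposite base 1 of the microRNA, which contains it. All 6 members held at least 1 match over 8 bases. Of 11305 annotated 3′ UTRs, from mouse genes with at least 1 FPKM in any stage, 3.37% did. The UTRs compared below are from this set. *Igf2bp1* held 4 matches of which 3 ran over 8 bases, a number that *Fignl2* also had and that was exceeded by *Trim6* with 5 and *Trim71* with 4. *Lin28b* and *Hmga2* each held 4 matches with 1 over 8 bases, *Lin28a* held 2, both over 8 bases, and *Igf2bp2* and *Igf2bp3* held 1 each. Long UTRs hold more matches. Among UTRs within 25% of the length of that of *Igf2bp1*, 6337 bases, 14.4% held a match over 8 bases, and among those like *Igf2bp2*, 1784 bases, 3.55% did. Having as many as 4 matches over 7 bases was met in 0.319% of UTRs as long as that of *Lin28b* and in 0.189% of those as long as that of *Hmga2*. A match is a run of letters in the annotation, and binding of let-7 was not measured.

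One 8-base match of each member is printed below with its flanks, in capitals, with coordinates in GRCm38 (GENCODE M21). All 6 genes lie on the minus strand. The matches of *Lin28b* and *Hmga2* shown lie 36 and 21 bases after the stop codon.
Lin28a, chr4:134005178-134005207: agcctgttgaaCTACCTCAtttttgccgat
Lin28b, chr10:45381011-45381040: gggcgggaagtCTACCTCAtgcaagcacag
Hmga2, chr10:120364213-120364242: acattcaatttCTACCTCAgcatcagttgg
Igf2bp1, chr11:95959346-95959375: agtgctattaaCTACCTCAgccccagaggg
Igf2bp2, chr16:22059462-22059491: acaaataaaagCTACCTCAggtgtttttta
Igf2bp3, chr6:49086776-49086805: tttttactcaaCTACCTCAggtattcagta

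**Figure D1:**
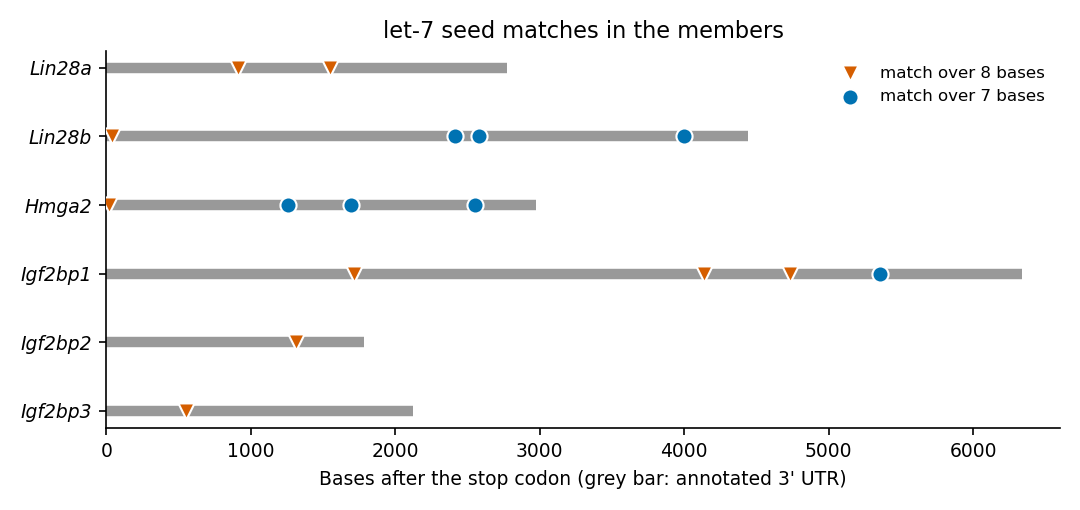
Positions of let-7 seed matches in the annotated 3′ UTR of each member, in bases after the stop codon (x axis); grey bars are the UTRs, triangles matches over 8 bases and circles matches over 7 bases only. Each of the 6 genes has at least 1 triangle, and the longest UTR, that of *Igf2bp1* with 6337 bases, has 3.

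Before the members were read, the stages were checked against marker genes. The summed FPKM of 5 ESC markers (*Pou5f1*, *Nanog*, *Sox2*, *Zfp42*, *Esrrb*) was 638 (ESC), 285 (MES), 61.5 (HB), 1.89 (HP) and 0.189 (MAC). That of 4 mesoderm markers was 277 in MES, 215 in HB and at most 12.0 in the other stages. For 4 hemangioblast markers it was 201 in HB, 130 in HP and 78.8 in MAC. For 5 blood progenitor markers it was 162 in HP and at most 19.5 in the other stages. That of 5 macrophage markers was 1297 in MAC and at most 7.79 in the other stages. Fibroblast markers, which the feeder cells of the ESC culture would bring, summed to 3.37 FPKM in ESC over the 5 of 6 that were measured, and were highest in HP with 37.8. In bulk samples, fewer cells of a type and less RNA per cell cannot be told apart.

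No member was called lower from ESC to MES or from MES to HB. Of all genes 7.31% and 3.3% were, so that none among 6 members is near those shares. Between HP and MAC 4 of the 6 were called lower, where 13.9% of all genes were called lower and 33.4% higher. *Lin28a*, at chr4:134003330-134018841, had 93.1 FPKM (ESC), 106 (MES), 116 (HB), 22.9 (HP) and 0.0656 (MAC). It was thus among the most abundant transcripts of the first 3 stages, with 98.7% of genes below it in ESC, and nearly absent from macrophages. *Lin28b*, at chr10:45376620-45486395, had 9.92 FPKM (ESC), 17.6 (MES), 22.0 (HB), 23.6 (HP) and 6.07 (MAC). Its values in HB and HP were close, with a difference of 0.10 on the log2(FPKM + 1) scale, whereas *Lin28a* had already dropped in HP. *Lin28b* was still present in MAC.

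*Hmga2*, at chr10:120361275-120476469, had 10.3 FPKM (ESC), 9.73 (MES), 23.6 (HB), 20.3 (HP) and 3.26 (MAC). HB and HP were thus its highest stages. *Igf2bp1*, at chr11:95957163-96005940, followed the order of *Lin28a* and had 73.7 FPKM (ESC), 82.6 (MES), 95.9 (HB), 54.1 (HP) and 11.6 (MAC). Unlike *Lin28a*, it kept more than 10 FPKM in macrophages.

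The other IGF2BP genes were not lower in MAC than in HP. *Igf2bp2*, at chr16:22059009-22163299, had 4.38 FPKM (ESC), 7.21 (MES), 15.1 (HB), 6.92 (HP) and 14.7 (MAC). *Igf2bp3*, at chr6:49085223-49214957, had 20.1 FPKM (ESC), 38.4 (MES), 39.1 (HB), 21.1 (HP) and 40.2 (MAC). Both had a lower value in HP than in HB. As deposited, their MAC values were near those of HB, but with the columns scaled to the same upper quartile *Igf2bp2* had 16.1 in HB and 9.92 in MAC, and *Igf2bp3* 41.6 and 27.1. The 3′ end of *Igf2bp3* shares 1529 exon bases with *Malsu1* on the opposite strand, which had 13.3 to 20.6 FPKM over the stages, and how strand was handled in counting is not given in the sources used here, so that reads from the 2 genes may not be separated.

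**Figure D2:**
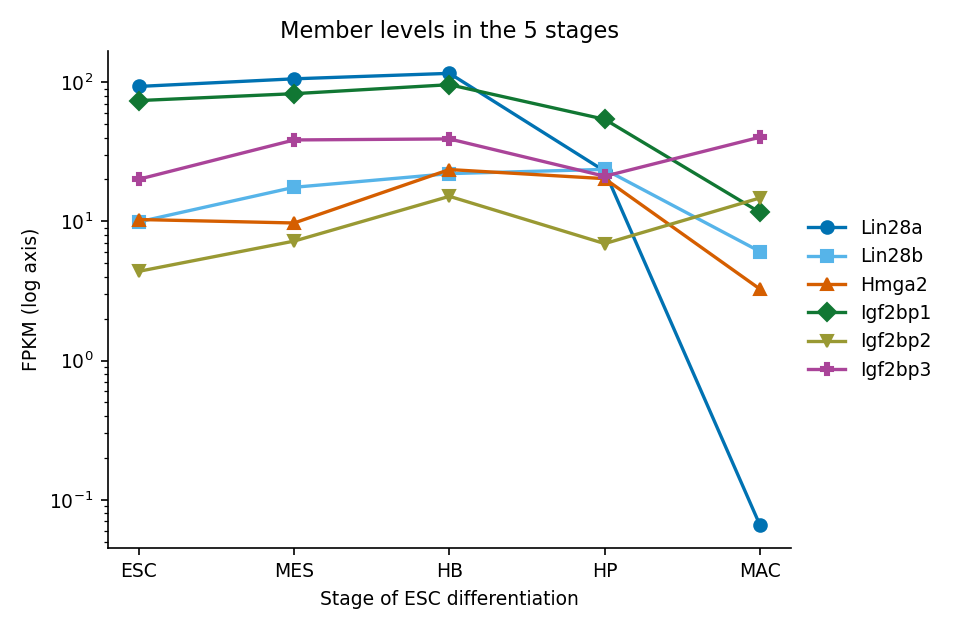
FPKM of the 6 members (y axis, log axis) in the 5 stages (x axis), 1 combined value per stage. *Lin28a* drops from 22.9 in HP to 0.0656 in MAC, *Lin28b*, *Hmga2* and *Igf2bp1* also drop there, and *Igf2bp2* and *Igf2bp3* do not.

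Step by step, no member was called from ESC to MES, where 6.94% of genes were called higher and 7.31% lower. The largest difference there was that of *Igf2bp3* with 0.90 on the log2(FPKM + 1) scale. From MES to HB, 1 of the 6 members, *Hmga2*, was called higher with a difference of 1.19, in a comparison in which 2.52% of genes were called higher and 3.3% lower. *Igf2bp2* was just under the limit with 0.97. *Lin28a* and *Igf2bp3* differed by 0.13 and 0.02, values whose sign changed when the columns were scaled to the same upper quartile.

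From HB to HP, 2 members were called lower and none higher, against 8.8% and 8.87% of genes. *Lin28a* fell by 2.28 on the log2(FPKM + 1) scale, a 5.04-fold drop in FPKM, and *Igf2bp2* fell by 1.03. With the columns scaled to the same upper quartile *Igf2bp2* was at -0.96 and no longer called. *Lin28b*, the paralog of *Lin28a*, differed by 0.10 in the same step.

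From HP to MAC, 4 of the 6 members were called lower, *Lin28a*, *Lin28b*, *Hmga2* and *Igf2bp1*. The differences were -4.49 for *Lin28a*, -1.80 for *Lin28b*, -2.32 for *Hmga2* and -2.13 for *Igf2bp1*, and in FPKM *Lin28b* dropped 3.89-fold, *Hmga2* 6.21-fold and *Igf2bp1* 4.66-fold. *Igf2bp2* and *Igf2bp3* differed by 0.99 and 0.90, just under the limit. The MAC column was higher in general: its upper quartile was 18.1 FPKM against 10.9 in HP, and the median of all genes differed by 0.45. Relative to that median the 4 members fell by 2.25 to 4.94, and *Igf2bp2* and *Igf2bp3* were higher by 0.54 and 0.45. With both columns scaled to the same upper quartile, the same 4 genes were called lower, and *Igf2bp2* and *Igf2bp3* differed by 0.32 and 0.19.

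Over the whole course, from ESC to MAC, 3 members were called lower (22% of genes were) and 1 higher (36.5% of genes were). *Lin28a*, *Igf2bp1* and *Hmga2* differed by -6.47, -2.57 and -1.41, and *Igf2bp2* by 1.55. Scaling the columns alike took *Igf2bp2* under the limit, to 0.81, and *Lin28b* past it, from -0.63 to -1.33.

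FPKM is per length, so paralogs can be set side by side within a column. *Lin28a* made up 90.4% of the summed FPKM of the LIN28 pair in ESC, 85.7% in MES and 84.0% in HB, then 49.3% in HP and 1.07% in MAC. The pair therefore went from mostly *Lin28a* through near equality in HP to almost only *Lin28b*, while its sum went from 103 FPKM in ESC and 138 in HB to 46.6 in HP and 6.13 in MAC. Within the IGF2BP trio, *Igf2bp1* made up 63.9% to 75.1% in the first 4 stages, but 17.4% in MAC. There *Igf2bp3* was the main form with 60.5% and *Igf2bp2* had 22.1%. Shares of *Igf2bp3* may include reads of *Malsu1*, which overlaps it. The trio as a whole changed much less than the LIN28 pair, from 98.2 FPKM in ESC and 150 in HB to 82.1 in HP and 66.6 in MAC.

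**Figure D3:**
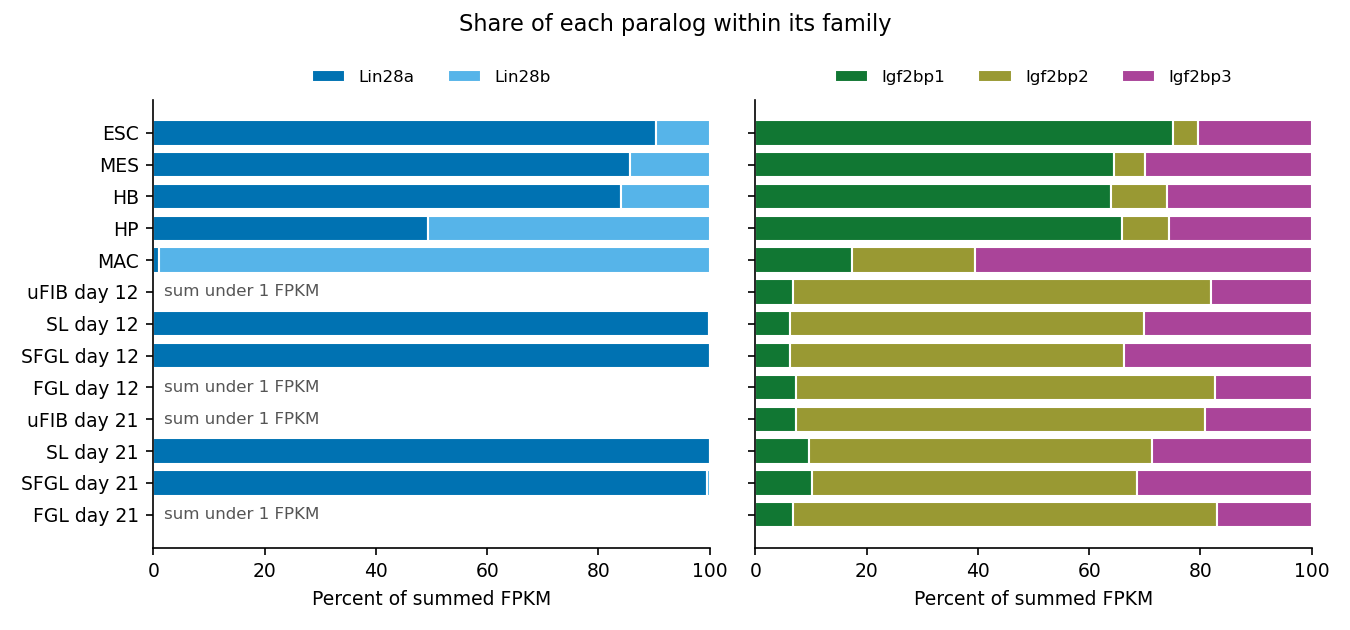
Percent of the summed FPKM (x axis) that each paralog of the LIN28 pair (left) and the IGF2BP trio (right) had in the 5 stages and the 8 MEF libraries (y axis), left blank where the sum was under 1 FPKM. In MAC *Lin28b* makes up 98.9% of its pair and *Igf2bp3* 60.5% of its trio, and in all MEF libraries *Igf2bp2* is the main IGF2BP form. Shares of *Igf2bp3* may include reads of *Malsu1*, which overlaps it.

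The MEF libraries address what the same genes do when fibroblasts are pushed toward blood by transcription factors, delivered with lentiviral vectors or, for TAL1, from the inducible cassette. The factors were read first, as a check of the labels. *Tal1* had 62.0 FPKM (SL) and 58.0 (SFGL) at day 12 and 347 and 119 at day 21, against 0.0414 and 0.415 in uFIB. The library labelled FGL at day 12 had 7.04 FPKM of *Tal1*, which its label does not include, and that at day 21 had 0.0705. *Lmo2* and *Gata2*, which the label does include, had 36.2 and 21.9 FPKM there at day 12, against 0.499 and 1.80 in uFIB. At day 21 they had 66.5 and 35.1 FPKM, against 2.28 and 2.13. By contrast *Fli1*, which the label also includes, had 3.35 FPKM in the library labelled FGL at day 21, close to the 3.02 of uFIB, and 8.29 at day 12. Directions drawn from the libraries labelled FGL are subject to this. *Fli1* and *Gata2* were also high in SL (46.7 and 68.8 FPKM at day 12), where they had not been given, and the tables do not separate transgene from endogenous transcripts.

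Blood and fibroblast markers moved with the same libraries. The summed FPKM of 5 blood progenitor markers (*Itga2b*, *Gata1*, *Gfi1b*, *Runx1*, *Myb*) was 251 (SL) and 347 (SFGL) at day 12 and 249 and 399 at day 21, against 21.1 and 25.8 in uFIB. It was 52.3 and 25.9 in the libraries labelled FGL. The summed FPKM of 6 fibroblast markers was 6224 (uFIB), 2110 (SL), 1719 (SFGL) and 5032 (FGL) at day 12, and 4939, 1042, 849 and 4753 in that order at day 21. All 6 were called lower in SL and in SFGL at both days, as were 12.3% to 17% of all genes. Their part in the results on the members was not tested.

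*Lin28a* was the member that went up. It had 0.0167 FPKM (uFIB), 13.5 (SL), 18.8 (SFGL) and 0.9997 (FGL) at day 12, and 0.0582, 3.70, 2.64 and 0.0284 in that order at day 21. Levels in SL and SFGL were thus above all other libraries at both days, as were those of 29.1% of the 12803 genes with at least 1 FPKM in any library, and lower at day 21 than at day 12. Of the ESC markers *Pou5f1* was listed at 0 in all 8 libraries, *Zfp42* and *Esrrb* were at most 0.105 FPKM and *Nanog* at most 0.170. *Sox2* had 12.3 FPKM in uFIB at day 21 and was lower in SL and SFGL than in uFIB at both days. The 5′ end of *Lin28a* shares 234 exon bases with the noncoding gene *Gm13061* on the opposite strand, which is not listed in either table.

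*Lin28b* did not accompany it. It was listed at 0 in 6 of the 8 libraries and had 0.0134 FPKM in SL at day 12 and 0.0135 in SFGL at day 21. The LIN28 transcripts of the reprogrammed cells therefore came from *Lin28a*, which had 99.5% to 100% of the pair in SL and SFGL, whereas in HP derived from ESC *Lin28b* had 50.7% of the pair. Shares are taken within a column, although the tables were made with different aligners.

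*Hmga2* and *Igf2bp2*, by contrast, were abundant in fibroblasts and lower in SL and SFGL. *Hmga2* had 39.0 FPKM (uFIB), 14.2 (SL), 11.7 (SFGL) and 28.7 (FGL) at day 12, and 37.0, 17.5, 8.84 and 33.0 in that order at day 21. All 4 values of SL and SFGL were below all 4 of uFIB and FGL, which was also so for 31% of the 12803 genes, so that this order is common in the table. *Igf2bp2* had 47.2 FPKM (uFIB), 17.1 (SL), 14.5 (SFGL) and 52.8 (FGL) at day 12, and 28.7, 16.5, 10.9 and 39.2 in that order at day 21. It belonged to the same 31% of genes.

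*Igf2bp1* was low throughout and had 4.27 FPKM (uFIB), 1.68 (SL), 1.498 (SFGL) and 5.14 (FGL) at day 12, and 2.90, 2.56, 1.92 and 3.45 in that order at day 21. It too belonged to that 31%, but at day 21 SL was close to uFIB. *Igf2bp3* had 11.4 FPKM (uFIB), 8.09 (SL), 8.13 (SFGL) and 12.2 (FGL) at day 12, and 7.55, 7.68, 5.88 and 8.79 in that order at day 21, with the groups overlapping. *Igf2bp2* was the main form in every library, with 58.3% to 76.2% of the IGF2BP trio, and its share was lower in SL and SFGL (58.3% to 63.6%) than in uFIB and FGL (73.3% to 76.2%).

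**Figure D4:**
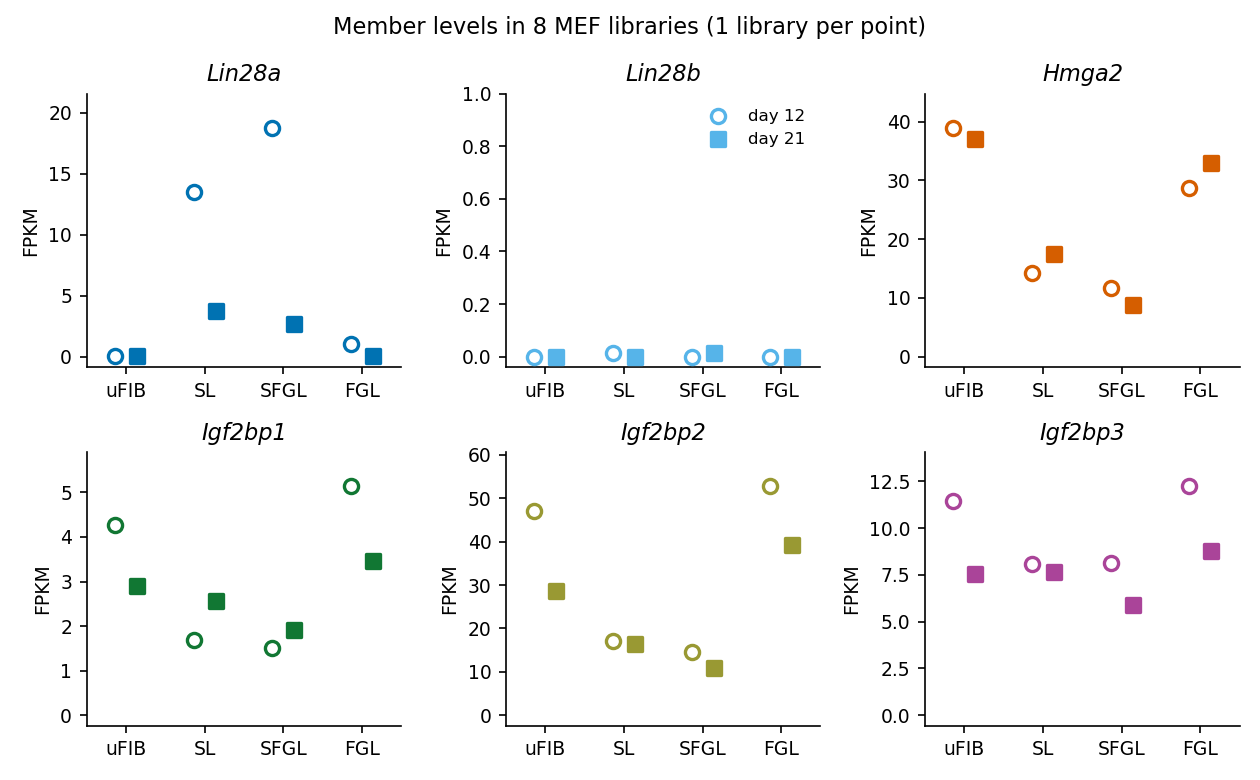
FPKM (y axis) of each member in MEFs that were untreated or given SL, SFGL or FGL (x axis), with open circles for day 12 and filled squares for day 21, 1 library per point. *Lin28a* is highest in SL and SFGL, *Hmga2* and *Igf2bp2* are lowest there, and *Lin28b* stays at or near 0.

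Against uFIB of the same day, *Lin28a* was called higher and *Hmga2* lower in SL and in SFGL at both days, with 5 members tested each time because *Lin28b* stayed under 1 FPKM. In SL at day 12, 1 member was called higher (14.2% of all genes were) and 2 lower (13.5% were). *Lin28a* differed by 3.83 on the log2(FPKM + 1) scale, *Hmga2* by -1.40 and *Igf2bp2* by -1.41, and *Igf2bp1* was just under the limit with -0.97. In SFGL at day 12, 1 was called higher (14.7%) and 3 lower (17%), with differences of 4.28 for *Lin28a*, -1.65 for *Hmga2*, -1.64 for *Igf2bp2* and -1.08 for *Igf2bp1*. With the mean of both uFIB libraries as reference *Igf2bp1* was at -0.88 and no longer called.

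At day 21, SL had 1 member called higher (11.9% of genes) and 1 lower (12.3%). *Lin28a* differed by 2.15, *Hmga2* by -1.04 and *Igf2bp2*, under the limit, by -0.77. SFGL at day 21 had 1 called higher (13.9%) and 2 lower (15.9%), with 1.78 for *Lin28a*, -1.95 for *Hmga2* and -1.32 for *Igf2bp2*. In the libraries labelled FGL 4 members were tested and none was called at either day, where 2.96% of genes were called higher and 0.302% lower at day 12, and 0.479% and 0.376% at day 21. *Lin28a* at day 12 was left out there only because its 0.9997 FPKM lay just under the limit, and its difference was 0.98. The comparisons of a day share their uFIB library.

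Between day 12 and day 21, *Lin28a* was called lower in SL by -1.62, where 2.93% of genes were called lower and 1.77% higher, and in SFGL by -2.44, where 2.75% were called lower and 2.2% higher. No other member was called between the days in any of the 4 conditions. In uFIB, where 1.28% of genes were called lower and 1.87% higher, *Igf2bp2* went from 47.2 to 28.7 FPKM, a difference of -0.70, without treatment. In the libraries labelled FGL, where 4.06% were called lower and 3.24% higher, it differed by -0.42.

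**Figure D5:**
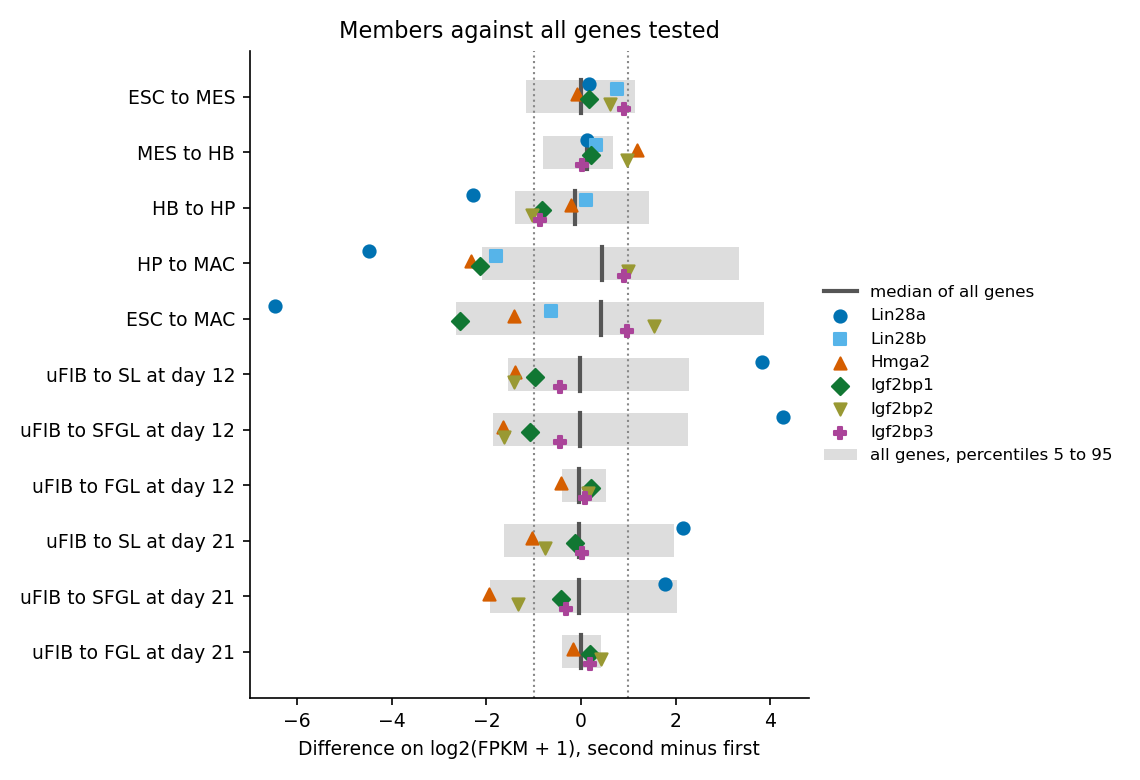
Difference on the log2(FPKM + 1) scale (x axis, second column minus first) of the members tested in each comparison (y axis), over the range from percentile 5 to 95 of all genes tested (grey bars) and their median (dark lines); dotted lines mark the limit of a call. *Lin28a* lies above the grey range in SL at both days and in SFGL at day 12, and below it in HB to HP, HP to MAC and ESC to MAC. Other members also lie outside it in some comparisons, such as *Hmga2* in MES to HB and in HP to MAC. No member is past the dotted lines in FGL.

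Which members ran together depended on the table. Pearson's r on log2(FPKM + 1) between *Lin28a* and *Igf2bp1* was 0.99 over the 5 stages and -0.80 over the 8 MEF libraries. For *Hmga2* and *Igf2bp2* it was -0.15 and 0.91, and for *Igf2bp1* and *Igf2bp2* -0.43 and 0.93. For *Igf2bp2* and *Igf2bp3* it was 0.80 and 0.87. The points are single columns of 1 table and share their normalization, and the MEF libraries fall into SL and SFGL on one side and uFIB and FGL on the other, so these values describe the columns and are not tests.

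The genes with the most similar pattern were taken from 7947 genes with at least 5 FPKM in a column of each table, by the lower of r over the 5 stages and r over the 8 MEF libraries. A high r does not mean a change of like size. For *Lin28a* they included *Tra2a* (a splicing factor, 0.99 and 0.98) and *Lmnb2* (a nuclear lamin, 0.98 and 0.98). *Tra2a* had 61.6 FPKM in HB and 36.9 in MAC, where *Lin28a* had 116 and 0.0656. *Lmnb2* had 22.1 FPKM in HB and 5.38 in MAC, and 5.94 in uFIB and 14.2 in SFGL at day 12. For *Igf2bp1* they were *Amotl2* (an angiomotin family protein of cell junctions, 0.998 and 0.987), *Epn2* (an epsin of endocytosis, 0.98 and 0.96) and *Myh10* (a nonmuscle myosin heavy chain, 0.96 and 0.97). *Amotl2* had 42.6 FPKM in HB and 0.0539 in MAC.

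For *Hmga2* the nearest genes were *Ubqln2* (a ubiquilin, 0.98 and 0.99), *Zc3h7b* (0.96 and 0.97) and *Ccdc8* (0.96 and 0.99). For *Igf2bp2* they included *Snx33* (a sorting nexin, 0.97 and 0.97) and *Rbms1* (an RNA-binding protein, 0.95 and 0.97), and for *Igf2bp3* they were *Glce*, *Wdfy1* and *Gcc2*, with r of 0.89 or more in both tables. For *Lin28b*, near 0 in all MEF libraries, the stages alone were used, over 9159 genes. *Zbtb10* (0.999), *Chd7* (a chromatin remodeller, 0.99) and *Zbtb12* (0.99) came first. Of the 18 genes found in this way 2, *Amotl2* and *Epn2*, were also among the first 3 by Spearman's rho.

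The machinery that makes and destroys let-7 was read next, as a list of 11 genes. *Trim71*, a let-7 target of early embryos that was listed among them, had 61.7 FPKM (ESC), 49.2 (MES), 57.4 (HB), 25.2 (HP) and 0.251 (MAC). As for *Lin28a*, the first 3 stages were the highest, HP came next and MAC was last. From HP to MAC 4 of the 10 genes tested were called lower (*Trim71*, *Xpo5*, *Zcchc11* and *Khsrp*) and 1 higher (*Zcchc6*), against 13.9% and 33.4% of all genes, and the median difference was -0.56 against 0.45 over all genes. *Zcchc11* and *Zcchc6* encode the uridylyl transferases that add U to let-7 precursors, and they went opposite ways: *Zcchc11* had 9.45 FPKM in HP and 2.87 in MAC, *Zcchc6* 11.8 and 27.2. In the MEF libraries none of the 10 tested genes was called in any of the 6 comparisons with uFIB. *Trim71* was at most 0.504 FPKM there.

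Known let-7 targets outside the members, 19 genes of which 6 also stood on another list, did not move as one between stages. From HP to MAC 4 of 19 were called higher and 4 lower, against 33.4% and 13.9% of all genes. *Ccnd1*, a cyclin of the G1 phase, differed by 2.89, and *Mycn*, which encodes N-MYC, went from 88.7 FPKM in ESC to 18.0 in HP and 0.198 in MAC. In the MEFs 9 of the 18 tested were called higher and 1 lower, in SL and in SFGL and at both days, and none was called in the libraries labelled FGL. Of all genes, 11.9% to 14.7% were called higher and 12.3% to 17% lower in these comparisons of SL and SFGL. The list was written with earlier results of these data known, and the comparisons of a day share their uFIB library. A link of these genes to let-7 or to *Lin28a* was not tested. Among the 9 were *Hmga1*, *Myc*, *Mycn*, *Cdc25a*, *Cdk6*, *Arid3a*, *Arid3b* and *Plagl2*, and the gene called lower was *Ccnd1*. Median differences of the list were 0.90 (SL) and 1.17 (SFGL) at day 12 and 0.98 and 1.09 at day 21, against medians of all genes between -0.04 and -0.03. *Hmga2*, itself a target with 4 matches, went the other way in the same libraries. So did other members with matches: *Igf2bp1* and *Igf2bp2* were below uFIB in SL and SFGL at both days. *Igf2bp3* was below uFIB except in SL at day 21, and *Lin28a* was above it.

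*Hmga1*, the sister gene of *Hmga2*, was one of the 9. It had 61.6 FPKM (uFIB), 250 (SL), 307 (SFGL) and 78.2 (FGL) at day 12, and 76.6, 179, 188 and 70.5 in that order at day 21. In the table of stages *Hmga1* had only 2.49 to 3.86 FPKM, and as HMG genes have many processed copies and only uniquely aligned reads were kept there, its level in the stages is uncertain. Of the 8 other HMG genes as a list, 5 were called higher in SL at day 12 and 2 lower, against 14.2% and 13.5% of all genes, and *Hmgb2*, a chromatin protein of dividing cells, went from 5.84 FPKM in uFIB to 99.7 in SL and 101 in SFGL.

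*Igf2*, whose mRNA gave the IGF2BP proteins their name, peaked in another stage than the *Igf2bp* genes. *Igf2* had 9.33 FPKM (ESC), 14.3 (MES), 53.3 (HB), 109 (HP) and 1.63 (MAC), so that it was highest in HP, where all 3 *Igf2bp* genes were below their HB level. *Igf1*, the related ligand, had 4.68 FPKM in HP and 182 in MAC. Of the 7 measured ligands, receptors and substrates, 5 were called higher from HB to HP (8.87% of all genes were) and 1, *Irs1*, lower (8.8% were). From HP to MAC 1 was called higher and 3 lower, against 33.4% and 13.9% of all genes. In the MEFs *Igf2* had 879 FPKM (uFIB), 336 (SL), 224 (SFGL) and 701 (FGL) at day 12, and 1141, 249, 192 and 1279 in that order at day 21. It was thus among the 31% of genes with all values of SL and SFGL below those of uFIB and FGL. *Irs1*, the insulin receptor substrate, went the same way, from 17.9 FPKM in uFIB to 2.73 in SL and 1.89 in SFGL at day 12.

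Other oncofetal genes were set beside the members, as a list of 7 genes. From HP to MAC 4 of the 6 tested were called lower and 1, *Afp*, higher, against 13.9% and 33.4% of all genes. *Afp* reached only 1.19 FPKM in MAC. *Plag1* changed little, with 2.21 to 4.10 FPKM over the stages and 2.46 to 3.98 in the MEF libraries. *Sall4*, a zinc finger factor of pluripotent and germ cells, had 77.9 FPKM in ESC, 43.7 in HB, 4.50 in HP and 0.304 in MAC, and at most 0.00987 in the MEF libraries. It thus shared the drop of *Lin28a* in the stages without its appearance in SL and SFGL. *Gpc3*, a glypican, peaked in HB with 109 FPKM and had 0.167 in MAC. *Dlk1*, a membrane protein of fetal tissues, had 63.9 FPKM in uFIB at day 12, 11.8 in SL and 6.38 in SFGL, and 11.3 in uFIB at day 21.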

How the data were processed

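Values are FPKM as the authors deposited them. For the stages, colour-space reads had been aligned with SHRiMP to mm10, uniquely aligned reads kept and duplicates removed with Picard, and cuffdiff of Cufflinks gave 1 value per transcription start and stage with replicates combined. The submitters' processing notes name Bowtie and HOMER for ESC, and TopHat and Cufflinks for the MEFs, which have 1 value per gene and library, so that ESC may have been processed unlike the later stages. Tool versions are not given in the sources used here. Genes with near-identical copies lose reads when only unique ones are kept, and removing duplicates limits the highest values. The authors' calls of changed genes were not used.

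Samples were grouped by their labels. In the table of stages 1 column, for a stage with no sample here, was not used. Rows were summed per gene name. Differences were on the log2(FPKM + 1) scale, for genes that reached 1 FPKM in either column, and calls were made at 2-fold. With 1 value per condition no test was run, and the planned use of limma and of replicates was not possible. The rule for calls was checked by putting set fold changes, without noise, into deposited values. That check does not measure the error of calls with 1 value per condition. The number of reads is not part of the tables. Depth of the MEF libraries was estimated from steps between values under 0.3 FPKM. Read counts per gene were not recovered, and no count test was run.

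The members and lists were chosen with earlier results of these data known. All members were named in every column, genes of the lists where their difference was the largest or smallest of the list, and the 3 genes most similar to each member, some of which are not reported here. *Amotl2* and *Lmnb2* values, *Zcchc11*, *Mycn*, *Hmga1*, *Sall4*, *Gpc3* and *Dlk1* levels were chosen after their values were seen where that rule does not name them. let-7 sequences came from RefSeq (GRCm38.p6) and UTRs from GENCODE M21, 1 coding transcript per gene. The UTRs set beside those of the members were limited to genes with at least 1 FPKM in any stage. With BLAST 2.17.0 no member shared at least 100 bases at 95% identity with another gene other than those overlapping it in the genome. Python 3.11.15, pandas 2.3.3, NumPy 2.4.6 and SciPy 1.17.1 were used. Alternatives were pseudocounts of 0.1 and 0.001, columns scaled to the same upper quartile, the highest transcription start only, the mean of both uFIB libraries as reference, a fold of 4, no low filter, and Spearman's rho for similarity.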

Additional observations from a re-analysis of the deposited data

Results flagged for a closer look

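*Igf2bp3* in SL against uFIB differed by -0.45 on the log2(FPKM + 1) scale at day 12 and by 0.0214 at day 21, opposite signs at the 2 days. With 1 library per condition this difference between days was not tested, and with all columns scaled to the same upper quartile the value at day 21 was -0.01.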

How the results depend on the processing

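No paired analysis was possible because the replicates of each stage are combined into 1 value and each MEF condition has 1 library, and for the same reason no replicate could be left out. Of 142 counts of called members recomputed under the alternatives, 125 stayed within 1.5 times the reported count and 17 did not, and of the 286 recomputed differences of members none that was called reversed. These totals include 10 counts and 30 differences for the highest transcription start only, which could not change because each member has 1 row. Counts of 0 that stayed 0 are also among the 125, and at a fold of 4 a count of 0 cannot rise. With a pseudocount of 0.1, 2 members were called higher from MES to HB and 1 from HP to MAC, *Igf2bp2* being added in both, and with 0.001 these counts were 2 and 1 and ESC to MAC gave 2 higher. With columns scaled to the same upper quartile, 1 member was called lower from HB to HP and 0 higher from ESC to MAC, *Igf2bp2* being lost in both. With the mean of both uFIB libraries as reference, 2 were lower in SL at day 21, *Igf2bp2* being added, and *Igf2bp1* was lost in SFGL at day 12. At a fold of at least 4, 0 were higher from MES to HB, 1 was lower from HB to HP, 0 were higher from ESC to MAC, 0 were lower at day 12 in either SL or SFGL and at day 21 in SL, 0 were higher and 0 lower in SFGL at day 21, and 0 were lower from day 12 to day 21 in SL. *Lin28a* from HP to MAC and in SL and SFGL at day 12 stayed called in all of these. The percent of genes called moved by over 1.5 times in all 15 comparisons without the filter on low values. It also moved by over 1.5 times in 6 of the 15 with a pseudocount of 0.1 and in 8 with 0.001. Values near 0, such as those of *Lin28a* in uFIB and MAC, are limited by depth, which the tables do not give.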
